A study of Mus musculus with 3 samples.

Results

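Chromatin immunoprecipitation followed by sequencing (ChIP-seq) of FLAG-tagged Runx3 gave a ranked list of 1000 windows of 101 bp, and 299 of them (29.9%, Wilson 95% interval 27.1 to 32.8) lay inside a gene and away from its start. The paper reports many more raw Runx3 peaks than this, so the shares below describe the listed windows only. A window was taken when its centre was more than 500 bp from every transcriptional start site (TSS) in the deposited neighbour table and when at least 1 deposited transcript contained it as intron, exon or untranslated region (UTR). They are called intragenic windows here. The other windows were 254 promoter windows, within 500 bp of a TSS, and 447 intergenic windows. Location inside a gene and distance to the TSS were thus fixed by the choice and are given as a description without a test.

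The cells were SFZ chondrocytes, from the superficial zone of joint cartilage, of C57BL/6 mice, which the methods describe as wild-type and, for this kind of culture, as a few days old. There were 3 libraries, 1 per group: RUNX3-FLAG (FLAG antibody, clone M2), IgG (a nonspecific mouse antibody control) and input (no antibody). Cells of all 3 libraries, controls included, had received 3xFLAG-tagged Runx3 vectors by lipofection, so the protein pulled down was an overexpressed one. With 1 library per group there was no replicate error and no test between conditions. The tests below compare windows of 1 library with each other or with their flanks, neighbouring windows are not independent, and intervals cover counting error only. Depth was unknown, and the cell type could not be checked against markers because the tables held no expression values.

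Runx proteins are transcription factors with a shared DNA-binding domain, and they bind a short motif together with the partner protein Cbfb. Runx1, Runx2 and Runx3 have roles in blood, bone and cartilage. Enhancers, the switches that act on a gene from a distance, often lie in introns, where a regulatory site can sit without altering the protein. A window inside a gene may act on that gene, on a neighbour or on none, and position alone does not tell which.

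The sequences below are shown because they carry the motif that most intragenic windows had in common. Each is the plus or minus strand of the mouse genome build mm9, 5′ to 3′, with a match to the Runx motif in capitals. The motif was TGTGGT, with C allowed in place of T at the third letter (TGCGGT), at the last letter (TGTGGC) or at both (TGCGGC). The Col3a1 site was at chr1:45370926-45370955 (plus strand), the Runx1 site at chr16:92778353-92778382 (plus), the Ltbp2 site at chr12:86187861-86187890 (minus), the Prrx2 site at chr2:30703962-30703991 (minus), the Tgfb2 site at chr1:188500138-188500167 (minus), the Mmp14 site at chr14:55052515-55052544 (plus) and the Fmod site at chr1:135936202-135936231 (minus).
Col3a1, intron 1: ttttatatttccTGTGGTttttaagcatgc
Runx1, intron 2: aactccccactgTGTGGTtttttgggtcag
Ltbp2, intron 3: gagccgccgagcTGTGGTtttgtgtttgtg
Prrx2, intron 1: cgaggttattaaTGTGGTttcttttgttgt
Tgfb2, intron 1: tccccagtaaaaTGTGGTtaaccacaagga
Mmp14, intron 1: agagtcctctccTGTGGTtccagtttcata
Fmod, intron 1: agcctggggattTGTGGTcctgagtgtgtg

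A smaller set, which included several of the best-ranked intragenic windows, had a site resembling that of REST, a repressor that silences neuronal genes outside the nervous system. The capitals mark the words AGCACC and GGACAG with 2 bases between them, of which at most 2 of 12 letters were allowed to differ. The Npas4 site was at chr19:4989155-4989184 (plus strand), the Phf21b site at chr15:84660021-84660050 (minus), the Garnl3 site at chr2:32873729-32873758 (plus), the Syt7 site at chr19:10477766-10477795 (plus) and the Snap25 site at chr2:136540069-136540098 (plus). All 5 matched the 12 letters exactly.
Npas4, intron 1: tgggattcAGCACCgcGGACAGctcctgcg
Phf21b, intron 2: atgaggccAGCACCacGGACAGcaccagat
Garnl3, intron 15: atggcgccAGCACCaaGGACAGcaccgcaa
Syt7, intron 1: gagtgttcAGCACCaaGGACAGggatatcc
Snap25, intron 1: gacctttcAGCACCgcGGACAGcgatccgg

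Nearly all intragenic windows were intronic. The centre of 283 of the 299 windows lay in an intron of the host transcript and that of 16 lay in an exon, and 20 windows touched an exon at any base. The deposited location read intron for 243 windows, 5′ UTR for 41, coding exon for 11 and 3′ UTR for 4. Of the 41 windows deposited as 5′ UTR, 40 had their centre in an intron that precedes the start codon, and 1, in exon 2 of Acbd4, lay in an exon. The deposited 5′ UTR label therefore covered introns as well as transcribed sequence upstream of the start codon.

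Among introns, the first held the most windows. Intron 1 held 104 of the 283 intronic windows (36.7%, 31.3 to 42.5), intron 2 held 42, intron 3 held 26, intron 4 held 29, and introns after the tenth held 37. First introns are often long. For the 281 windows in hosts with at least 2 introns, the share of intronic bases that belonged to intron 1 gave 89.7 windows (31.9%), and 102 were observed (36.3%, 30.9 to 42.1). The interval included the share of bases. Where several deposited transcripts contained a window, the host was the one with the nearest TSS, a choice that can favour intron 1. The longest intron of the host held 148 of these windows (52.7%, 46.8 to 58.4). Its share of intronic bases was not computed, so this number is not shown to be a preference. The introns that held a window had a median length of 18.4 kb, from 0.433 to 330 kb.

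**Figure D1:**
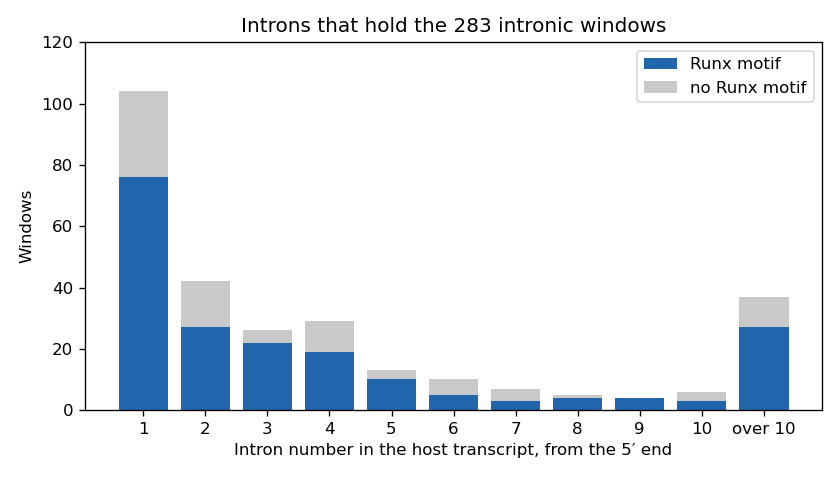
Number of windows (vertical axis) by the number of the intron that holds the window centre, counted from the 5′ end of the host transcript (horizontal axis), for 283 intronic windows. Intron 1 held 104 windows, of which 76 had the Runx motif (blue), and grey marks windows without it.

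Windows in intron 1 did not differ detectably from those in later introns. The Runx motif was present in 76 of 104 (73.1%, 63.8 to 80.7) and in 124 of 179 (69.3%, 62.2 to 75.6), an odds ratio of 1.20 (0.683 to 2.15, adjusted p = 0.588, Fisher's exact test, two-sided). The median rank was 612 in intron 1 and 507 later, with an estimated shift of 45 places (-26 to 118, adjusted p = 0.441, Mann-Whitney test, two-sided, n = 104 and 179). The 16 windows with their centre in an exon had the motif in 8 (50%, 28.0 to 72.0) against 200 of the 283 intronic ones (70.7%, 65.1 to 75.7), a description without a test. Their median GC content was 65.3%, against 50.5% in the introns.

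Most intragenic windows were far from any start site of the deposited table. The median distance to the nearest deposited TSS was 26.5 kb, from 0.505 kb to 257 kb. Between 0.5 and 1 kb there were 13 windows, between 1 and 5 kb 36, between 5 and 10 kb 28, between 10 and 50 kb 124, between 50 and 100 kb 55, and beyond 100 kb 43. For 69 of the 299 windows the nearest TSS belonged to a gene other than the host. Along the host, from TSS to end, the 5 equal parts held 63, 75, 61, 46 and 54 windows. Hosts were on the plus strand for 144 windows and on the minus strand for 155.

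The limit of 500 bp left similar windows on either side. Just beyond it were windows in Plec1 (505 bp, rank 804), Il20ra (518 bp, rank 805) and Xkr7 (565 bp, rank 77). Just within it, and therefore among the promoter windows, were windows at Sertad1 (499 bp, rank 826), Runx1 (498 bp, rank 399) and Sept14 (470 bp, rank 226).

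A second annotation placed a start site near some of them. GENCODE vM1, which lists more transcripts than the deposited table, had a TSS within 500 bp of 16 intragenic windows (5.35%, 3.32 to 8.51), and for 9 of these it was a start of the host gene. With protein-coding transcripts only, the number was 8. Those near a start of their host included Rac1 (17 bp), Cuedc1 (22 bp), Slc23a2 (72 bp) and S100a4 (284 bp). At the window in Lrrk1 the start belonged to Gm10974 (162 bp), and at that in Tgfb2 to the small nucleolar RNA gene SNORA70 (421 bp). Rac1, Slc23a2 and Lrrk1 were chosen after their values were seen. The 16 windows had a median GC content of 60.4% and the Runx motif in 11, against 50.5% and 197 of 283 (69.6%, 64.0 to 74.7) in the others. Beyond 500 bp, too, some windows had a nearer start in GENCODE than in the deposited table. Examples, also chosen after their values were seen, were Camta1 (18208 against 257053 bp) and Palld at rank 140 (2945 against 145546 bp). The distances to a TSS in this report are those of the deposited table unless GENCODE is named.

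The 299 windows fell in 272 host genes. Of these, 271 matched a GENCODE protein-coding gene, which is 1.21% of the 22367 such genes. Hosts were long. Their median length in GENCODE was 93.6 kb, against 15.4 kb over all protein-coding genes, and 126 hosts (46.5%) were over 100 kb, against 10.7% of genes. A longer gene offers more positions, and genes over 100 kb held 59.0% of all bases in protein-coding genes. The length that divides those bases into equal parts was 136 kb. Hosts were thus longer than the typical gene. Counted once each, a smaller share of hosts than of genic bases lay in genes over 100 kb. The share of windows in such genes, the like unit for bases, is not given here. The GENCODE protein-coding gene bodies outside the 500 bp around a TSS covered 37.5% of the sequenced genome. With GENCODE gene bodies and start sites, 344 of the 1000 windows were intragenic, against 299 by the deposited table.

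**Figure D2:**
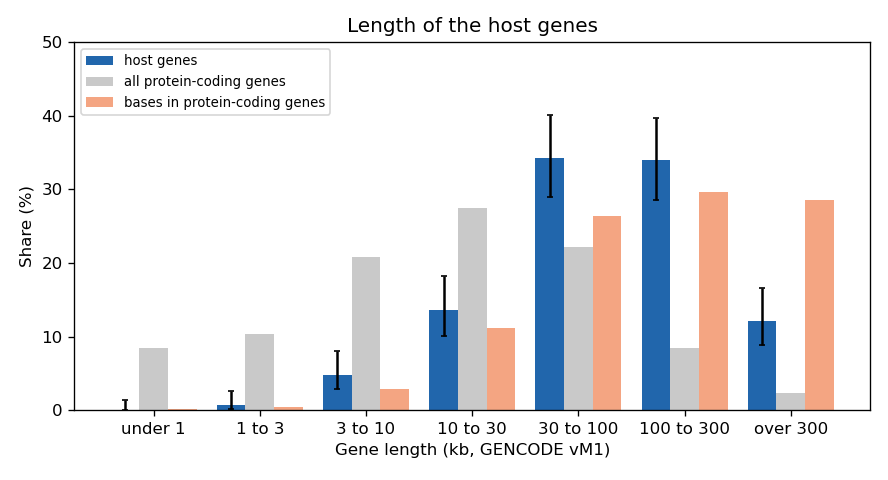
Share of host genes, of all protein-coding genes and of the bases in protein-coding genes (vertical axis, %) by gene length in kb (horizontal axis), with Wilson 95% intervals on the 271 matched hosts. Hosts between 30 and 100 kb made up 34.3%, against 22.1% of genes and 26.4% of genic bases, and hosts over 300 kb made up 12.2%, against 28.6% of bases. Each host was counted once, however many windows it held.

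The longest host was Camta1, a calmodulin-binding transcription activator, at 802 kb in the deposited transcript, with its window (rank 16) in intron 3. Ptprg (688 kb, rank 898) and Ptprm (687 kb, rank 655), receptor tyrosine phosphatases, each had a window in intron 1. The shortest hosts were S100a4, a calcium-binding protein of motile cells (2.27 kb, rank 205), 2810428I15Rik (2.44 kb, rank 905) and 1700065D16Rik (2.77 kb, rank 458).

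Several windows shared a host in 21 genes, which held 48 windows. Of the 272 hosts, 251 had 1 window, 17 had 2, 2 had 3 and 2 had 4. Windows of a host share a source and are not replicates. The Runx motif was present in 31 of the 48 (64.6%, 50.4 to 76.6).

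Plec1 encodes plectin, which links intermediate filaments to other parts of the cytoskeleton. Its 4 windows all lay in intron 1 of the host transcript, at ranks 45, 575, 632 and 804. They were 0.505 to 1.998 kb from the start of that transcript. The window at rank 45 lay in 10 deposited transcripts, of which the one with the nearest TSS was taken. The gene has several start sites, and the windows were 2.18 to 5.42 kb from their neighbours. 3 of the 4 had the Runx motif. The best of them, at rank 45, was the single intragenic window of the first 100 that had no partner in the IgG-named list described further on.

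2010111I01Rik also had 4 windows, at ranks 506, 717, 814 and 942, with the Runx motif in 2. Cuedc1 had 3, at ranks 440, 491 and 695, of which the closest pair was 826 bp apart, and Gse1 had 3, at ranks 368, 714 and 878. Xylt1, the enzyme that starts glycosaminoglycan chains on proteoglycan core proteins, had a pair 2.19 kb apart in intron 2, at ranks 134 and 507, both with 2 matches to the motif. Cubn, an endocytic receptor, had a pair 3.46 kb apart in intron 27 at ranks 273 and 626, and both held the motif.

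Other hosts had pairs too. Capzb, a capping protein of actin filaments, had windows at ranks 121 and 685 in intron 1, and only the first held the motif. Galk2 had ranks 25 and 247, and there the second held it. The windows of Rad51l1, a DNA repair gene, at ranks 630 and 842 and those of Palld, at ranks 140 and 754, had no match. Outside the gene lists described further on, the remaining pairs were in 1110007C09Rik (318 and 629), 9130404D14Rik (669 and 904), Antxr1 (385 and 460), Lmcd1 (843 and 990) and Gm672 (37 and 166).

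Ranks of the intragenic windows spread over the whole list. The rank is the number given to each window in the deposited list, and no height or false discovery rate came with it. The median was 516 (quartiles 271.5 and 759.5), against 474.5 for promoter windows and 486 for intergenic windows. The estimated shift was 29 places against promoter windows (-22 to 79, adjusted p = 0.398, Mann-Whitney test, two-sided, n = 299 and 254) and 19 places against intergenic windows (-25 to 63, adjusted p = 0.398). Of the first 100 windows 25 were intragenic, of the next 233 it was 73, of the 333 after those it was 92, and of the last 334 it was 109.

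Windows nearer to a start site were not shown to rank differently once p was adjusted. Before adjustment the p for rank was 0.0398 (Mann-Whitney test), and the interval of the shift below is not adjusted. The 49 intragenic windows within 5 kb of a TSS had a median rank of 458 and the 250 others 529, a shift of -95 places (-189 to -5, adjusted p = 0.0797, Mann-Whitney test, two-sided, n = 49 and 250). The Runx motif was present in 32 of the near windows (65.3%, 51.3 to 77.1) and 176 of the far ones (70.4%, 64.5 to 75.7), an odds ratio of 0.791 (0.398 to 1.62, adjusted p = 0.499, Fisher's exact test, two-sided).

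**Figure D3:**
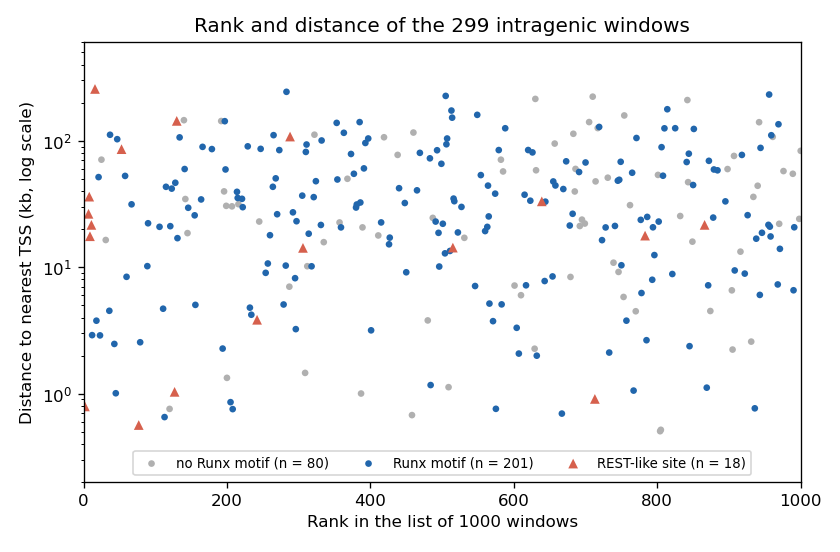
Rank of each of the 299 intragenic windows (horizontal axis) and its distance to the nearest TSS in kb (vertical axis, log scale). Red triangles mark 18 windows with a REST-like site, 8 of them among the first 100 ranks, blue points 201 other windows with the Runx motif and grey points the 80 with neither.

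The 15 intragenic windows of the best rank were mixed in their hosts. The first was in Npas4 (gene ID 225872), an activity-dependent transcription factor of neurons, at rank 2, followed by Phf21b (rank 7), Garnl3 (rank 8), Erich1 (rank 9) and the netrin receptor gene Unc5a (rank 11). These 5 all had a REST-like site, and so did Camta1 (rank 16). Sfpi1 (gene ID 20375), which encodes PU.1, a transcription factor of myeloid and B cells, held a window in coding exon 5 at rank 12, 2904 bp from the TSS of the next gene, Mybpc3. Itgb3, an integrin subunit, had a window in intron 1 at rank 18, 3.78 kb from its start. After these came 4931408A02Rik (rank 21), BC064033 (rank 23), Galk2 (rank 25), Tmem2 (rank 31), Fpgs (rank 36), Gm672 (rank 37) and Col3a1 (rank 43).

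The Runx motif marked most intragenic windows. It was present in 208 of 299 (69.6%, 64.1 to 74.5), beside 66.1% of all 1000 windows. Windows of the same length 500 bp to the left had it in 46 (15.4%) and to the right in 45 (15.1%), and 15.8% of 356124 windows tiled along the host genes had it. In 177 pairs with the left flank the match was in the intragenic window alone and in 15 pairs in the flank alone, and on the right the numbers were 179 and 16 (both adjusted p = 9.70e-36, exact McNemar test, two-sided).

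Intragenic windows had the motif more often than promoter windows and were not shown to differ from intergenic ones. Of promoter windows 137 of 254 had it (53.9%, 47.8 to 59.96), an odds ratio of 1.95 (1.36 to 2.81, adjusted p = 0.000278, Fisher's exact test, two-sided). Of intergenic windows 316 of 447 had it (70.7%, 66.3 to 74.7), an odds ratio of 0.948 (0.680 to 1.32, adjusted p = 0.744, Fisher's exact test). GC content moved with the first of these differences. The median was 50.5% in intragenic windows and 65.3% in promoter windows, a shift of -13.9 percentage points (-14.9 to -11.9, adjusted p = 2.60e-46, Mann-Whitney test, two-sided, n = 299 and 254), and its part in the difference was not tested. Against intergenic windows, with a median of 51.5%, the shift was 0 (-1.98 to 0.990, adjusted p = 0.505, n = 299 and 447).

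**Figure D4:**
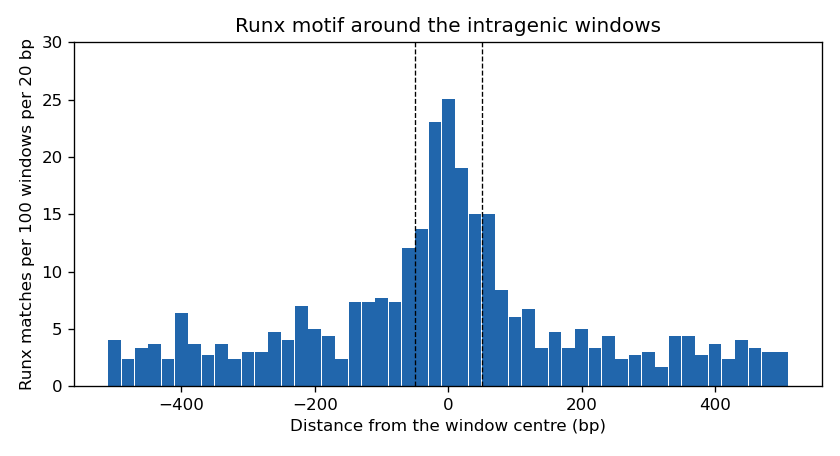
Runx motif matches per 100 intragenic windows in bins of 20 bp (vertical axis) by distance from the window centre in bp (horizontal axis), with dashed lines at the window edges. The central bin held 25.1 matches per 100 windows, and the outermost bins, 480 and 500 bp to either side, held 2.34 to 4.01.

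Matches sat near the centre of the windows. Of 278 matches in the 299 windows, 149 (53.6%, 47.7 to 59.4) lay within 20 bp of the centre, which is 42.7% of the positions a match could take. Of 151 windows with a single match, 84 had it on the host's coding strand (55.6%, 47.7 to 63.3). A further 57 windows (19.1%, 15.01 to 23.9) had at least 2 matches, with a median of 27 bp between neighbouring matches. Of these windows, 12 had matches 10 bp apart or closer. At least 2 matches were also present in 38 of 254 promoter windows (14.96%, 11.1 to 19.9). Intergenic windows had them in 101 of 447 (22.6%, 18.96 to 26.7), and these differences were not tested. Among intragenic windows, the most matches in 1 window, 4, were at Fmod. A further 11 windows had 3 each, of which the best-ranked were in Hhat, Galnt2, Agpat4 and Tnxb.

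The share of each form of the motif is given here for each kind of window. TGTGGT made up 170 of the 278 intragenic matches (61.2%, 55.3 to 66.7), 222 of the 431 intergenic matches (51.5%, 46.8 to 56.2) and 41 of the 179 promoter matches (22.9%, 17.4 to 29.6). TGCGGC, which contains a CpG as TGCGGT does, made up 9 of 278 (3.24%), 41 of 431 (9.51%) and 52 of 179 (29.1%). TGCGGT was 38 and TGTGGC 61 of the intragenic matches. In the flanks of the intragenic windows, TGTGGT was 47 of 96 matches (49.0%) and TGCGGC 8 (8.33%). In the flanks of the promoter windows, TGTGGT was 26 and TGCGGC 27 of 93 matches, close to the shares in the promoter windows themselves. The remaining forms differed. TGCGGT was 65 of 179 promoter matches (36.3%) against 11 of 93 in the flanks (11.8%). TGTGGC was 21 (11.7%) against 29 (31.2%). Beside the motif, the base before it was C in 47.8% of matches in the windows and 33.3% in the flanks, and the base after it was T in 53.2% against 40.6% and A in 3.96% against 17.7%. Matches share windows and hosts, so these shares are descriptions.

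By rank, the motif was present in 18 of 25 windows in the first 100 (72.0%, 52.4 to 85.7) and 55 of 73 up to rank 333 (75.3%, 64.4 to 83.8). It was present in 69 of 92 up to rank 666 (75%, 65.3 to 82.7) and 66 of 109 after that (60.6%, 51.2 to 69.2), the lowest share. By distance to the TSS, the lowest share was 7 of 13 between 0.5 and 1 kb (53.8%, 29.1 to 76.8) and the highest 21 of 28 between 5 and 10 kb (75%, 56.6 to 87.3). These intervals overlapped.

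Motifs of other factors were sought next, each by its letters on both strands. The AP-1 motif (TGAGTCA or TGACTCA), bound by Fos and Jun proteins, was present in 36 intragenic windows (12.0%, 8.82 to 16.2), beside 9.1% of all windows, 1.97% of promoter windows (odds ratio 6.82, 2.60 to 22.6, adjusted p = 1.56e-05, Fisher's exact test, two-sided) and 11.2% of intergenic windows (odds ratio 1.09, 0.668 to 1.75, adjusted p = 0.742). The flanks had it in 2.68% and 1.67%. Adjusted p-values here cover 12 comparisons.

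Of the 36 windows with an AP-1 motif, 35 were intronic, beside 283 of all 299, and 30 also had the Runx motif, beside 208 of all 299. The median distance between the nearest AP-1 and Runx matches in those 30 was 23.5 bp (5.5 to 72.5). Examples were BC064033 and Fpgs, both among the best-ranked, and Tnxb, Tgfb2 and Srgap1. Itga11 had the AP-1 motif without a Runx match. The 3 sites below show the AP-1 motif in capitals, at chr2:32545078-32545107, chr17:34818139-34818168 and chr9:62560280-62560309 (all plus strand).
Fpgs, intron 4: tctgatgtctgTGAGTCAccacaagggggc
Tnxb, intron 5: gattcccactcTGACTCActgcggcgaggg
Itga11, intron 2: aacccacacccTGACTCAttctggttagag

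The ETS motif (CCGGAA), common in promoters, was rarer inside genes. It was present in 5 intragenic windows (1.67%, 0.716 to 3.85), beside 7.7% of all windows, 22.4% of promoter windows (odds ratio 0.0588, 0.0181 to 0.150, adjusted p = 8.66e-15, Fisher's exact test, two-sided) and 3.36% of intergenic windows (adjusted p = 0.412). The flanks of the intragenic windows had the ETS motif in 3.68% and 1.67%. The SOX motif (ACAAAG or ACAATG) was present in 29 (9.70%, 6.84 to 13.6), beside 9.2% of all windows. Promoter windows had it in 3.54% (odds ratio 2.92, 1.31 to 7.15, adjusted p = 0.0164, Fisher's exact test), but the flanks of the intragenic windows had it in 12.7% and 12.4%, both above the share in the windows themselves. Promoter windows also differed in GC content, as given above, and its part in these differences was not tested.

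The TEAD motif (GGAATG) was present in 38 intragenic windows (12.7%, 9.40 to 17.0), beside 11.6% of all windows, 6.69% of promoter windows (odds ratio 2.03, 1.08 to 3.94, adjusted p = 0.0662, Fisher's exact test, two-sided) and 8.03% and 6.02% of flanks. The CRE motif (TGACGT) was present in 9 (3.01%, 1.59 to 5.62), beside 4.6% of all windows and 6.69% of promoter windows (odds ratio 0.433, 0.167 to 1.05, adjusted p = 0.109, Fisher's exact test). Against intergenic windows, none of the 6 motifs passed, with adjusted p from 0.412 to 0.742, and the unadjusted p was above 0.05 for all 6.

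**Figure D5:**
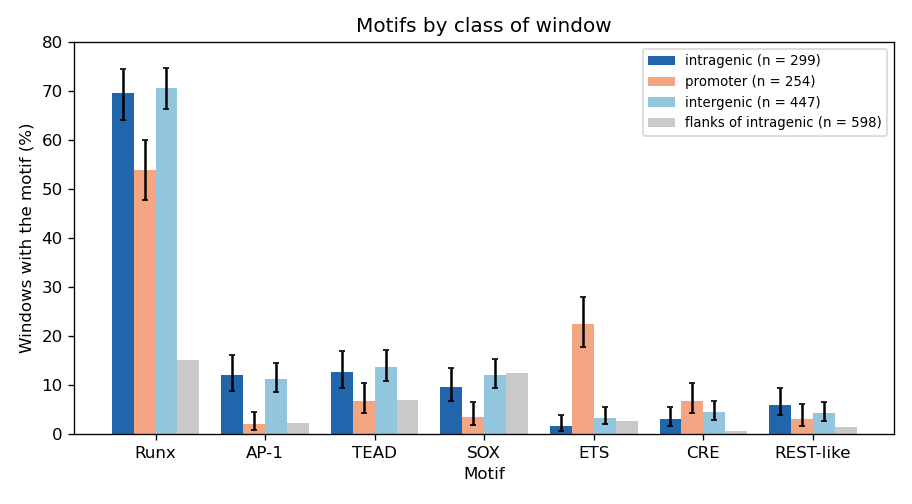
Share of windows with each motif (vertical axis, %) in 299 intragenic, 254 promoter and 447 intergenic windows, with Wilson 95% intervals, and in the 598 flanks 500 bp from the intragenic windows (grey). Intragenic and intergenic bars lay close together for all 7 motifs, and promoter windows stood apart for Runx (53.9%), AP-1 (1.97%), SOX (3.54%) and ETS (22.4%).

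Several REST-like sites stood at the head of the list. They were present in 18 intragenic windows (6.02%, 3.84 to 9.31), beside 4.5% of all windows, 3.15% of promoter windows (odds ratio 1.97, 0.797 to 5.33, adjusted p = 0.314, Fisher's exact test, two-sided), 4.25% of intergenic windows (odds ratio 1.44, 0.700 to 2.96, adjusted p = 0.412) and 1.34% and 1.67% of flanks. Of the 18, 8 were among the 25 intragenic windows of the first 100 ranks, and the median rank was 128.5. REST-like sites were also present in 8 promoter and 19 intergenic windows. Their ranks were not compared, so a place near the head of the list is not shown to be particular to intragenic windows. An exact match was found in 10, including D11Bwg0517e (rank 288), Syt7 (rank 306) and Nsf (rank 639), which were chosen after their values were seen. Syt7 and Nsf serve vesicle fusion, as does Snap25 (rank 713). All 18 were also in the IgG-named list, beside 91.6% of all intragenic windows. Of the 18, 7 had the Runx motif (38.9%, 20.3 to 61.4), beside 69.6% of all intragenic windows.

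The files held a second list of 1000 windows from the same library, named for IgG in addition, whose control was not stated. By the same rule it had 295 intragenic windows. Of the 299, 274 (91.6%, 87.9 to 94.3) overlapped a window there by 1 bp or more, beside 91.2% of all windows and 638 of the 701 others (91.0%), an odds ratio of 1.08 (0.655 to 1.84, p = 0.808, Fisher's exact test, two-sided). The median difference in rank was 7 places. Of the 25 without a partner, 7 had a rank after 900. As both lists came from 1 library, this is no independent check of the windows.

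Host genes were then read by function, from lists of genes of the tissue and of the top of the list. The lists were chosen with earlier results of these data known, so their counts are descriptions. Cartilage matrix is built of collagen fibrils, proteoglycans and the enzymes that remodel them. Of 72 matrix and collagen genes, 10 were hosts, with 12 windows (4.01% of the 299, where these genes hold 0.544% of genic bases), and 11 of the 12 had the Runx motif, beside 69.6% of all intragenic windows. Their median rank was 625.5, against 516 over all intragenic windows.

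The collagens among them were Col3a1 (gene ID 12825, type III, intron 1, rank 43), Col27a1 (a fibrillar collagen of cartilage, intron 37, rank 644), Col5a1 (type V, intron 4, rank 808) and Col4a2 (a basement membrane collagen, intron 4, rank 872). Of these 4, Col3a1 was in the first 100 ranks, with its window 2.47 kb after the TSS at a GC content of 38.6%. Fmod (gene ID 14264), fibromodulin, which binds collagen fibrils, had its window in intron 1, 2.12 kb after the TSS (rank 733). Tnxb, tenascin-X, had rank 257 with 3 Runx matches.

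Enzymes of matrix turnover were hosts too. Mmp14 (gene ID 17387), a metalloproteinase anchored in the membrane, had a window with 3 Runx matches in intron 1, 2.08 kb after the TSS (rank 607). Timp2, an inhibitor of metalloproteinases, had its window in intron 1 at rank 411, and this was the 1 matrix window of 12 without a Runx match. It lay 30.7 kb from the Timp2 start and 17.8 kb from that of Ddc8.

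The pathway of TGF-beta and BMP, signals that shape cartilage and bone, held 7 hosts of 46 genes and 9 windows (3.01%, against 0.319% of genic bases), of which 7 had the Runx motif, beside 69.6% of all intragenic windows. The ligand gene was Tgfb2 (gene ID 21808), with a window in intron 1 at rank 380 that had a Runx and an AP-1 match. Among receptors were Tgfbr3, a co-receptor (intron 14, rank 549), Acvr1, a type I receptor (intron 1, rank 770, no Runx match), and Tgfbr2, a type II receptor (intron 1, rank 970, no Runx match).

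Downstream of the receptors, Smad3 (gene ID 17127), which carries the signal to the nucleus, had a window with 2 Runx matches in intron 1, 31.3 kb from its start (rank 381). The microfibril proteins Ltbp1 and Ltbp2, of the family that binds latent TGF-beta, each had a pair of windows. Those of Ltbp2 (gene ID 16997) had ranks 146 and 955 in introns 3 and 2, 7.89 kb apart. Those of Ltbp1 had ranks 499 and 841, both in intron 3 and 2.15 kb apart. All 4 had the motif, and both genes were also counted in the matrix list.

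Transcription factors of the skeleton had 5 hosts of 79 genes and 7 windows, and all 7 had the Runx motif, beside 69.6% of all intragenic windows. They made up 2.34% of the windows, against 1.06% of genic bases, with a median rank of 377. Runx1 (gene ID 12394) had windows in intron 3 (rank 115, 2 matches) and intron 2 (rank 324, 1 match) of its transcripts, 124 kb apart, and the second had no partner in the IgG-named list. Prrx2 (gene ID 20204), a homeobox factor of limb and craniofacial mesenchyme, had a pair in intron 1 at ranks 155 and 401, 25.7 and 3.17 kb from its start. Nfia (intron 4, rank 505) and Hivep3, which acts in bone formation (intron 6, rank 895), had 1 window each.

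Runx3 (gene ID 12399) itself had a window at chr4:134731343-134731443 in its last exon, exon 6, at rank 377, with a GC content of 71.3% and 2 Runx matches. It lay 54.8 kb from its TSS. Because the cells carried a Runx3 vector, reads from the vector and from the genome cannot be told apart at a coding exon.

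Cells of the joint surface are under shear, and genes of actin and adhesion connect them to the matrix. Of 65 such genes, 8 were hosts, with 14 windows (4.68%, against 0.977% of genic bases) at a median rank of 668.5, and 7 of the 14 had the Runx motif, beside 69.6% of all intragenic windows. Beside Plec1 they included Palld, an actin-bundling protein, Itga11, a collagen-binding integrin subunit (intron 2, rank 142), the formins Fmnl3 (ranks 321 and 926) and Fmnl2 (ranks 393 and 705), Pxn, paxillin (intron 1, rank 728), and Ptk2, focal adhesion kinase (intron 6, rank 907). Both Fmnl3 windows and 1 of the Fmnl2 windows had the motif.

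The list of neuronal and REST-type genes gave 5 hosts of 59, with 5 windows (1.67%, against 0.955% of genic bases). Their median rank was 77, and 2 had the Runx motif, beside 69.6% of all intragenic windows. The hosts were Npas4 (rank 2), Phf21b (rank 7), Xkr7 (exon 1, rank 77), Celsr3, an atypical cadherin (exon 1, rank 120), and Snap25 (rank 713). All but Celsr3 had an exact REST-like site. The list was drawn in part from the top of the ranking and from REST-type genes, so its ranks and its REST-like sites partly restate that choice. The Npas4 window was 0.793 kb and the Snap25 window 0.909 kb from the TSS.

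The windows in exons came from unrelated genes. After Sfpi1, Xkr7, Celsr3 and Arhgef17, they were in Tas1r3, a taste receptor (3′ UTR, rank 242), Rsad1 (exon 5, rank 279), Aak1 (3′ UTR, rank 287), Insm2 (its only exon, rank 309), Narg2 (exon 16, rank 331), 1700065D16Rik (rank 458), Acbd4 (rank 509), Ccdc97 (3′ UTR, rank 546), Ppp1r12b (exon 2, rank 554), Pik3r3 (3′ UTR, rank 844) and 2810428I15Rik (rank 905), beside Runx3. Of the 16, 8 were in the last exon of a host with several exons, 3 in the first, 3 in an exon between and 2 in the single exon of Insm2 and 1700065D16Rik.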

How the data were processed

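ChIP-seq libraries of RUNX3-FLAG, IgG and input, 1 each, were analysed through the 2 tables of neighbouring genes that the authors made from the RUNX3-FLAG library. According to the methods, reads were aligned with bowtie to unmasked mm9, and peaks were called with CisGenome against input and filtered on P value and false discovery rate. The deposited columns held positions, ranks and signed distances in bp, written by the authors' software. No read counts or heights were among them, so depth and its precision are unknown. The 2 tables of nearest genes were not used.

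Deposited positions count from 0 and include both ends, and they are printed from 1. Windows were classed by the smallest distance to a TSS at the window centre (limit 500 bp). The host was the deposited transcript that contained the window, and introns were counted in it. Where several contained it, the one with the nearest TSS was taken. Sequence came from NCBIM37, the same build as mm9, and gene lengths and further TSSs from GENCODE vM1. Motifs were sought on both strands. REST-like sites allowed 2 mismatches in 12 letters. A window was shared between lists when it had 1 bp in common with its one-to-one partner.

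The members and lists were chosen with earlier results of these data known. Shares have Wilson 95% intervals. Fisher's exact, exact McNemar and Mann-Whitney tests were two-sided, with Benjamini-Hochberg adjustment over the 4 Runx motif comparisons, the 12 of other motifs, and each pair of rank, GC, intron or distance tests, at a threshold of 0.05. Named genes were the hosts of the 15 best ranks, hosts with several windows, list genes, windows outside introns, the 3 longest and 3 shortest hosts, the 5 windows with the most Runx matches (ties taken by rank) and windows at the 500 bp limit. Alternatives were the IgG-named list, a 1000 bp limit, the window edge, GENCODE genes, 1 window per host, the top 500 windows, a narrower motif (TGTGGT or TGCGGT), 50 bp of padding, flanks at 1000 bp and other overlap and distance limits. The statistics were tested on simulated data, where 13 of 13 steps passed and 200 of 200 planted motifs were found in 1000 windows. Some sequences, genes and lists are not reported here. The work used Python 3.11.15 with numpy 2.4.6, scipy 1.17.1, pysam 0.24.0 and matplotlib 3.10.9.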

Additional observations from a re-analysis of the deposited data

How the results depend on the processing

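Of 90 alternative values over 27 results, 81 kept their direction and call, or stayed close to the main count or share. No paired analysis was possible because 1 library per group leaves nothing to pair or to leave out. With the narrower motif, the odds ratio of intragenic against intergenic windows turned from 0.948 to 1.09, neither past the threshold (adjusted p = 0.597, Fisher's exact test, 0.234 to 1 over the alternatives). With 50 bp added to each side, that of the TEAD motif against intergenic windows turned to 1.03, also not past it. The number of other-motif comparisons called was 3, rose to 5 in the IgG-named list and was 4 with padding or the 1000 bp limit. TEAD against promoter windows passed under all 3 (odds ratios 2.28, 1.98 and 2.13), and CRE passed in the IgG-named list (0.339). The share with a GENCODE TSS became 12.0% within 1000 bp and 2.68% with protein-coding transcripts, by construction. The near windows' shift in rank was -10 with a limit of 10 kb and -47 in the IgG-named list. The causes were not tested. Without depth, heights or replicates, neither the strength of a window nor its reproducibility could be given, and windows beyond rank 1000 were not analysed here.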

Other observations

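For some of the 69 windows whose nearest TSS in the deposited table belonged to a gene other than the host, that neighbour has a role in growth or signalling. These examples were chosen after their values were seen. Galk2 held a window at rank 247 nearest to the start of Fgf7, a fibroblast growth factor (86344 bp), but in GENCODE the nearest start was one of Galk2 (60518 bp). Gm672 held windows at ranks 37 and 166 nearest to the start of Smad7, an inhibitor of TGF-beta signalling (111596 and 89554 bp), while in GENCODE the nearest start was that of Gm10532, a noncoding RNA gene (35684 and 57726 bp). Hivep3 held the window of rank 895 nearest to the start of Edn2, an endothelin (33184 bp), which was also the nearest in GENCODE. Narg2 held that of rank 331 nearest to the start of Anxa2, an annexin (21595 bp), but in GENCODE the nearest was one of Narg2 (15215 bp). Which gene, if any, such a window acts on was not measured.

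By chromosome, the share of windows that were intragenic ranged from 17.0% on chromosome 10 (8 of 47) to 43.0% on chromosome 2 (37 of 86) among autosomes, and 1 of the 6 windows on chromosome X was intragenic.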
